A study of Danio rerio with 6 samples.

Results

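The genes described here belong to 4 families that vertebrate epithelia use in bulk: keratins, claudins, annexins and S100 proteins. Their members were the rows of the expression table whose symbols begin with krt followed by a digit or t, with cldn, with anxa followed by a digit, or with s100, and whose mean over the 6 libraries was at least 10 normalized read counts. The rule gave 74 of the 20836 genes tested, of which 18 were keratins, 28 claudins, 16 annexins and 12 S100 genes. It used no difference between the groups. Of 76 matching rows, krt96 (mean 8.69) and cldn10a (mean 8.70) fell just outside the minimum, and s100a1 (12.4), krt98 (18.7) and cldn23b (31.8) just inside it.

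RNA came from zebrafish embryos carrying the Tg(c-myb hyper:GFP) transgene, the c-myb hyper fish, a leukemia model with expanded myelopoiesis. The transgene was present in both groups. The sample titles speak of cells whereas the extraction protocol names embryos, and the RNA is read here as that of whole embryos. From 30 hours post-fertilization (hpf) the embryos were held in 60 µM Tan I (Tanshinone I, a lipid-soluble compound of Salvia miltiorrhiza) or in its solvent DMSO, and RNA was taken at 72 hpf, with 3 libraries per group. The number of embryos per library, and whether libraries came from separate clutches, was not stated, so p-values measure the spread between these libraries.

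Keratins are the intermediate filament proteins of epithelial cells and assemble from a type I and a type II chain. Claudins are the membrane proteins that form tight junction strands and set which ions pass between cells. Annexins bind membrane phospholipids in the presence of calcium, and S100 proteins are small calcium-binding proteins, some of which bind annexins. The 72 hpf zebrafish skin has an outer periderm and a basal layer, each with its own keratins, and the gut, vessels and myelin each use particular claudins. In RNA from whole embryos, fewer cells of a type and less RNA per cell cannot be told apart.

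The table held 15874701 to 24932190 reads per library after the authors' size factors were undone, and each Tan I library (20451593 to 24932190) was deeper than each DMSO library (15874701 to 16959503). Thinning all libraries to the smallest total left 11 of the 13 calls described next. Of a list of 16 wound and inflammation genes, 11 symbols were found, on 12 tested rows. None was called by limma, and 9 rows had an unadjusted limma p under 0.05, all higher, beside 8.77% of all tested genes higher at that p. The list had a median log2 fold change of 0.89, and edgeR and DESeq2 each called 2 of its rows, both higher. Its summed count was 2363 to 2625 in DMSO but 4071, 9999 and 2531 in Tan I replicates 1 to 3, so that replicate 2 stood apart. The part of this list in the results on the 4 families was not tested.

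Tan I moved genes of the 4 families in both directions, with krt97, cldn23a, cldn15a, cldn15lb and anxa1a among those higher and s100a11, krt15, krtt1c19e and anxa1c among those lower. A gene was called when its limma adjusted p (Benjamini-Hochberg over all 20836 genes) was under 0.05. Of the 74 members, 13 were called (17.6%), 8 higher and 5 lower, where 2.57% of all tested genes were called, 2.07% higher and 0.504% lower. Groups did not overlap for 27 members (36.5%), 20 higher and 7 lower, beside 21.1% of all tested genes, 10.7% higher and 10.4% lower. The median log2 fold change was 0.13 over the members and -0.0067 over all tested genes. The members also had higher counts (median of the gene means 613, beside 270 over all tested genes). Their limma standard errors were smaller (median 0.101 beside 0.118). The part of these differences in the share called was not tested. Changes were moderate in size: on the log2(value + 1) scale the called members ranged from 0.529-fold to 1.67-fold of DMSO.

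The number of calls depended on how the variance was modelled. With limma run without its mean-variance trend, 165 of the 20836 tested genes were called. Of the 74 members 1 was then called, cldn23a, so that it alone of the 13 remained. Leaving out DMSO replicate 2 gave 5 called members and leaving out Tan I replicate 2 gave 6. Over all tested genes the main fit called 536. This number also changed with the library left out, as given at the end. edgeR's quasi-likelihood test on the recovered reads called the same 13 members, and DESeq2 called these and 2 more (anxa2a and cldnb).

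**Figure D1:**
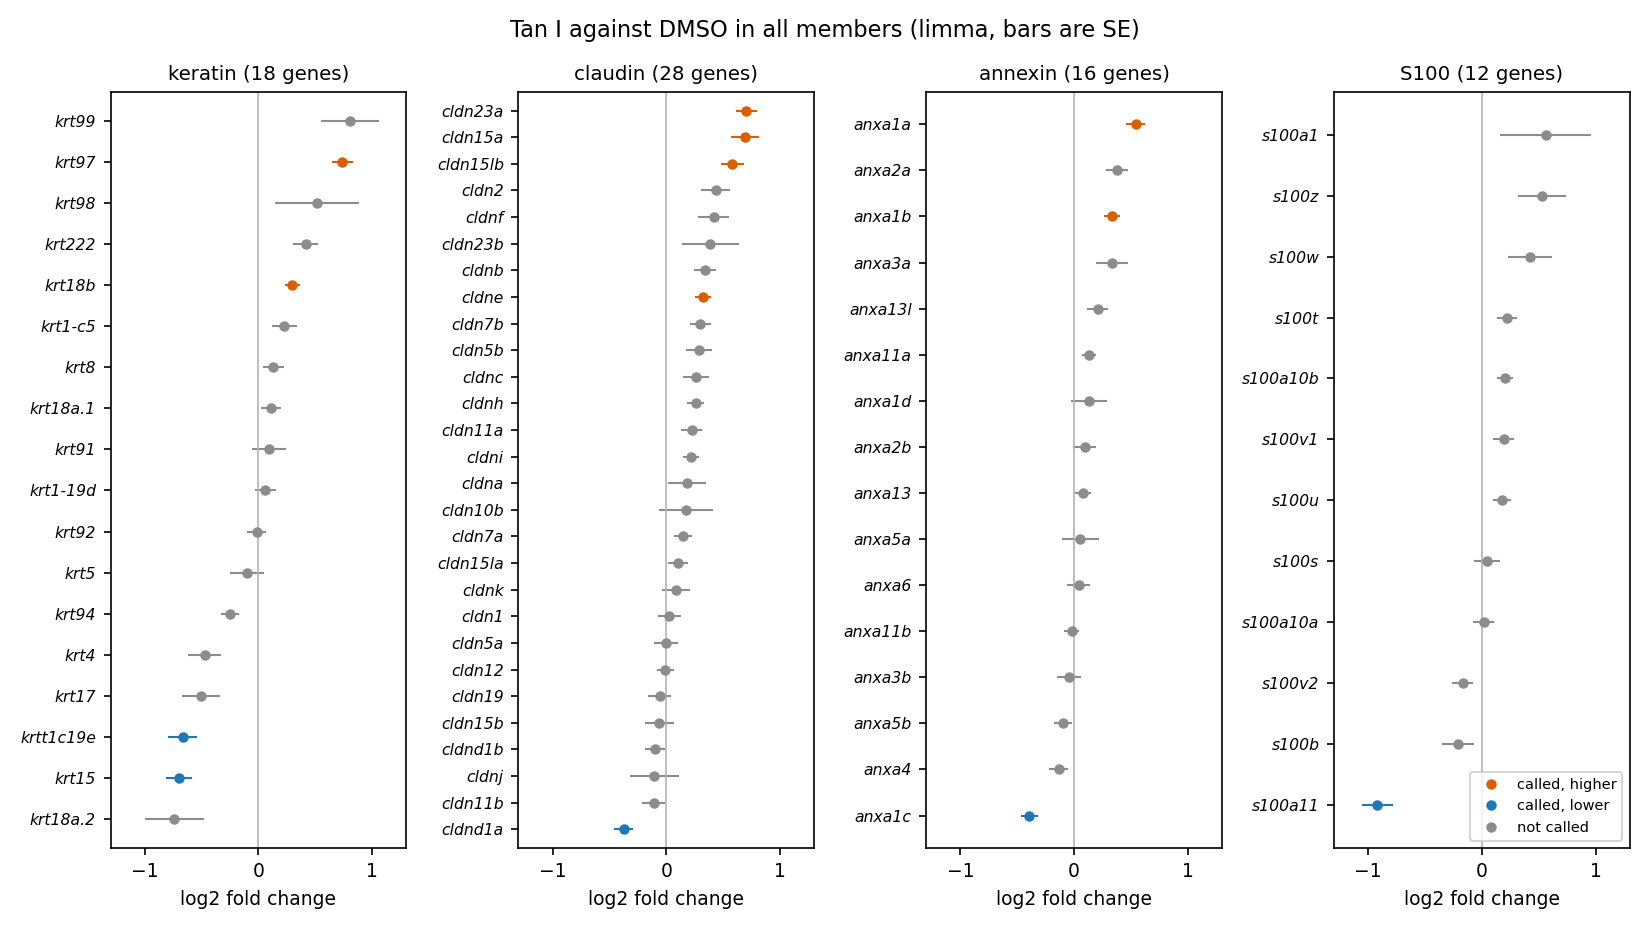
Log2 fold change of Tan I against DMSO (x axis) for each of the 74 members, in a panel per family, with bars for the limma standard error. Filled orange marks called genes that were higher, blue called genes that were lower and grey genes not called. Claudins lie mostly to the right of 0 (21 of 28, beside 10110 of all 20836 tested genes), whereas keratins spread from -0.74 to 0.80.

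Among keratins, a few genes carried most of the reads, and the called genes moved in both directions. Tan I lowered krtt1c19e and krt15 and raised krt97 and krt18b. Together krt4, krt5, krtt1c19e, krt91 and krt8 made up 85.6% to 90.1% of the keratin counts of a library, and of these only krtt1c19e was called. Of the 18 keratins, 4 were called (22.2%), 2 higher and 2 lower, and 10 had an unadjusted limma p under 0.05 (4 higher, 6 lower). Over all tested genes 2.57% were called, and 15.3% had such an unadjusted p (8.77% higher, 6.5% lower). The family's median log2 fold change was 0.077.

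The basal layer keratin krtt1c19e, a type I keratin, was counted at 54727, 48655 and 38919 in the DMSO libraries and at 35224, 27368 and 26832 in the Tan I libraries, each in the order of replicates 1 to 3, as in all sentences that follow. All Tan I values lay below all DMSO values, although DMSO replicate 3 and Tan I replicate 1 came close. The log2 fold change was -0.67 ± 0.13 (SE, n = 3 per group; limma adjusted p = 0.0141), or 0.630-fold. None of the other 5 genes of the basal layer list was called. The hemidesmosome integrin genes itga6b and itgb4 had log2 fold changes of 0.33 ± 0.10 (limma adjusted p = 0.105) and 0.16 ± 0.18. Tp63, the transcription factor that maintains basal epidermis, was at 0.016 ± 0.15, and the hemidesmosome collagen genes col17a1a and col17a1b were at 0.0058 ± 0.14 and -0.072 ± 0.09. These 5 genes were named after their values were seen.

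Krt15, whose mammalian namesake is a keratin of basal cells in stratified epithelia, had 3349, 2847 and 2317 counts in DMSO and 1842, 1842 and 1528 in Tan I. The groups were separate, and the log2 fold change was -0.70 ± 0.12 (limma adjusted p = 0.00559). Krt97 went the other way, with 3704, 2942 and 3049 counts in DMSO and 5887, 5135 and 5087 in Tan I. It had the smallest p of the 74 members (log2 fold change 0.74 ± 0.09, limma adjusted p = 0.000494). Its lowest Tan I value exceeded its highest DMSO value by more than the whole range of the DMSO libraries.

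Krt18b, which encodes a type I keratin of simple epithelia, rose less, from 2533, 2645 and 2481 counts in DMSO to 3298, 3107 and 3019 in Tan I (log2 fold change 0.30 ± 0.06, limma adjusted p = 0.0273). Other keratins of simple epithelia did not pass. Krt8, the type II partner of keratin 18, had a log2 fold change of 0.13 ± 0.10 and krt18a.1 0.11 ± 0.09. Both had overlapping groups. Krt18a.1 and krt18a.2 lie side by side. Because reads mapping to several places were removed, counts of any close copies are uncertain. This limit also applies to other neighbouring relatives, anxa1b and anxa1c among them. How similar such neighbours are was not measured.

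The periderm keratin krt4 had the most counts of any member. They were 101545, 85528 and 71072 in DMSO and 76151, 55066 and 55180 in Tan I, so that Tan I replicate 1 overlapped with DMSO replicate 3. The log2 fold change of -0.47 ± 0.14 did not pass (limma adjusted p = 0.123), but it passed under 4 of the 18 alternatives. Counts of krt5, a type II keratin, were 60820, 48303 and 39093 in DMSO and 55282, 42184 and 39795 in Tan I, with wide overlap (log2 fold change -0.10 ± 0.15, adjusted p = 0.803). Krt91 was similar (log2 fold change 0.09 ± 0.15, adjusted p = 0.819).

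Replicate 1 held the highest value of its group, within DMSO and within Tan I, for 11 of 18 keratins (61.1%), beside 14.8% of all tested genes. The median coefficient of variation of keratins was 13.9% in DMSO and 12.8% in Tan I, beside 8.85% and 9.14% over all tested genes. Because the abundant keratins moved up and down together between libraries, each was also divided by krt5 of the same library, a denominator chosen after the values were seen. On this scale krtt1c19e was 0.900, 1.01 and 0.996 in DMSO and 0.637, 0.649 and 0.674 in Tan I. The spread within a group shrank and the gap between the groups became wider than either group's range. Krt4 behaved in the same way, with 1.67, 1.77 and 1.82 in DMSO and 1.38, 1.31 and 1.39 in Tan I. Of the 17 keratins so divided, krt97 and krt91 were higher without overlap, krt15, krtt1c19e and krt4 were lower, and 12 overlapped. The exact permutation p of each of these 5 was 0.1, the smallest that 3 against 3 libraries can give. Among the 12 were krt18b, krt222, krt94 and krt17, whose undivided groups were separate. Undivided, 7 of the 18 keratins were separate (38.9%), beside 21.1% of all tested genes. No such share over all genes was computed for the ratios.

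**Figure D2:**
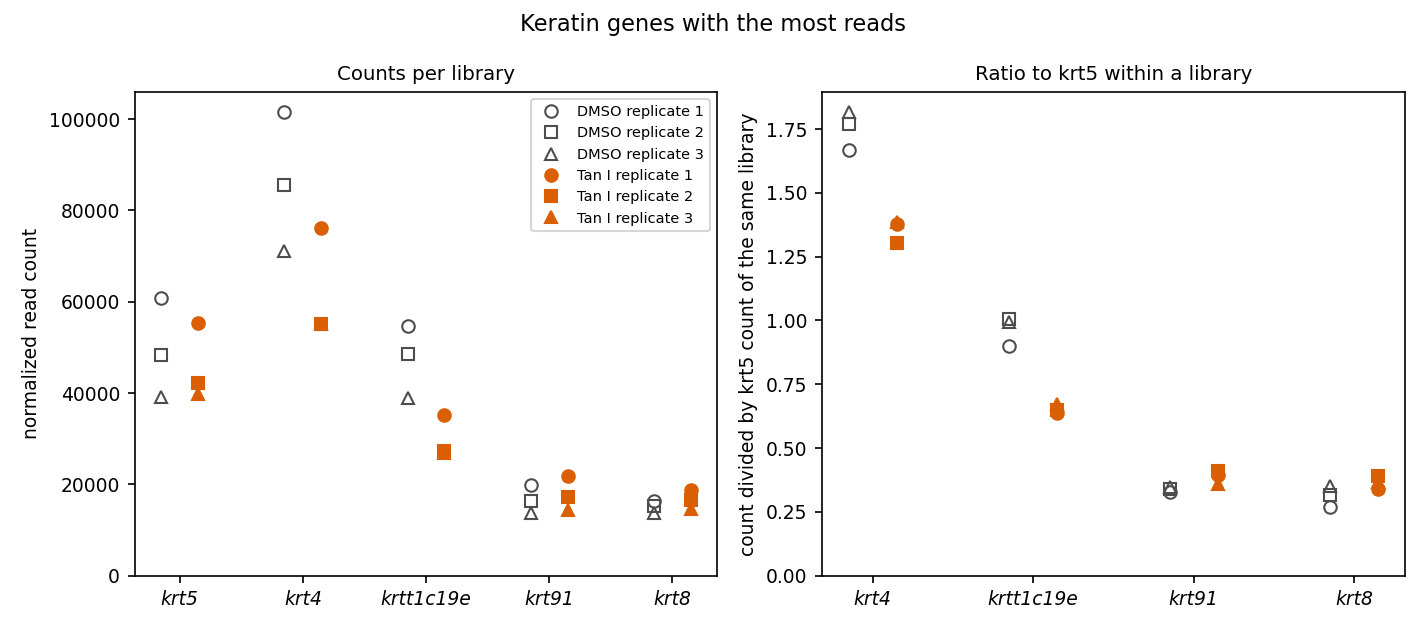
Counts per library (left, normalized read counts, linear axis from 0) and the count divided by the krt5 count of the same library (right, linear axis from 0) for the abundant keratins, with open grey symbols for DMSO, filled orange for Tan I, and a symbol shape per replicate number. Krt5 overlaps between groups at left, while at right krt4 and krtt1c19e separate, at 1.67 to 1.82 against 1.31 to 1.39 and at 0.900 to 1.01 against 0.637 to 0.674.

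Keratins as a whole took 1.44%, 1.24% and 1.07% of all counts of the table in DMSO and 1.22%, 0.964% and 0.951% in Tan I. The means, 1.25 ± 0.18% and 1.05 ± 0.15% (SD, n = 3), had overlapping libraries (2-sided exact permutation p = 0.2). With 3 against 3 libraries this test cannot go below 0.1, so it does not show that the shares were alike.

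Among the keratins that were not called, named here after their values were seen, krt17 (log2 fold change -0.51), krt94 (-0.25) and krt18a.2 (-0.74) were lower and krt99 (0.80) and krt222 (0.42) higher at an unadjusted limma p under 0.05. Krt17, another periderm keratin, had 3083, 3323 and 3143 counts in DMSO but 2961, 1560 and 2435 in Tan I. Its lowest value was in Tan I replicate 2. The remaining keratins (krt1-c5, krt1-19d, krt92 and krt98) had overlapping groups and unadjusted p of 0.05 or more.

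The keratin calls differed in firmness. Krt97 and krt15 kept theirs whichever library was left out, krtt1c19e lost its call without DMSO replicate 1, DMSO replicate 2 or Tan I replicate 2, and krt18b lost its call in every omission except that of Tan I replicate 3. The keratin count fell to 2 without DMSO replicate 1, DMSO replicate 2 or Tan I replicate 2 and rose to 7 with sample quality weights, and the family's median turned to -0.025 without DMSO replicate 3 and to -0.014 without Tan I replicate 1.

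Claudins were mostly higher in Tan I. Of 28, 21 had a log2 fold change above 0, beside 10110 of all 20836 tested genes. Of the 28, 5 were called (17.9%), 4 higher and 1 lower. Over all tested genes 2.57% were called, 2.07% higher and 0.504% lower. An unadjusted limma p under 0.05 was found for 14 claudins, 13 of them higher. The corresponding background was 8.77% of tested genes higher and 6.5% lower at that p. The median log2 fold change was 0.20. Claudins took 0.0883 ± 0.0021% of all counts in DMSO and 0.102 ± 0.0019% after Tan I (SD, n = 3), without overlap (2-sided exact permutation p = 0.1, the smallest possible).

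Cldn23a rose from 275, 266 and 280 counts in DMSO to 469, 453 and 416 in Tan I. The DMSO libraries lay close together and every Tan I library was well above them (log2 fold change 0.70 ± 0.09, limma adjusted p = 0.000851). It was called under all 18 alternatives, the only member for which this held.

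A pair of claudin 15 genes rose as well. Cldn15a, a claudin of the gut epithelium that takes part in the opening of a single gut lumen in zebrafish, had 262, 232 and 327 counts in DMSO and 416, 423 and 476 in Tan I (log2 fold change 0.69 ± 0.12, limma adjusted p = 0.00846). Cldn15lb had 353, 322 and 392 counts in DMSO and 474, 561 and 562 in Tan I (log2 fold change 0.58 ± 0.10, limma adjusted p = 0.00797). Groups were separate in both genes. A further gut claudin, cldn15la, had 866, 841 and 834 counts in DMSO and 793, 970 and 978 in Tan I, with Tan I replicate 1 lowest of all (log2 fold change 0.10 ± 0.09, adjusted p = 0.626). Cldn15b, named after its values were seen, had a log2 fold change of -0.062 ± 0.13 with overlapping groups.

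Some intestine markers also rose. Of 7 markers, cldn15la included, 3 were called and all 3 were higher: anpepb, a brush border aminopeptidase, fabp1b.1, a fatty acid binding protein, and slc15a1b, a peptide transporter. Over all tested genes 2.57% were called, 2.07% higher. Anpepb had a log2 fold change of 0.86 ± 0.08 (limma adjusted p = 3.50e-05) and fabp1b.1 of 0.66 ± 0.08 (limma adjusted p = 0.000701). The list's median was 0.32 and its summed count 8898 to 10441 in DMSO and 12153 to 13653 in Tan I, without overlap. Its part in the claudin result was not tested.

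Cldne, a claudin of the enveloping layer and periderm, had 1112, 1103 and 1151 counts in DMSO and 1456, 1458 and 1301 in Tan I (log2 fold change 0.32 ± 0.07, limma adjusted p = 0.0314). Its groups were separate. Cldnb, found in epidermis and in the lateral line primordium, had 984, 996 and 910 counts in DMSO and 1389, 1248 and 1049 in Tan I. Its groups did not overlap but the gene did not pass (log2 fold change 0.34 ± 0.10, adjusted p = 0.0899). Cldni, with the most counts among claudins, was at 4090, 3597 and 3585 in DMSO and 4460, 4456 and 4155 in Tan I (0.22 ± 0.07, adjusted p = 0.156).

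Only cldnd1a was called lower among the claudin symbols, going from 595, 578 and 602 counts in DMSO to 415, 464 and 491 in Tan I (log2 fold change -0.38 ± 0.09, limma adjusted p = 0.0400). It encodes a claudin domain containing protein, a relative of the strand-forming claudins. Its paralogue cldnd1b, named after its values were seen, had a log2 fold change of -0.10 ± 0.09 with overlapping groups.

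Claudins of other tissues did not pass. Cldn5a, a claudin of neural barriers, had a log2 fold change of 0.001 ± 0.11, and the endothelial cldn5b of 0.29 ± 0.12 (adjusted p = 0.259). The myelin claudin cldnk had 0.088 ± 0.12. Among claudins with a log2 fold change below 0, cldn11b had the smallest p after cldnd1a (-0.11 ± 0.10, limma adjusted p = 0.636). None of the 6 endothelium markers (median 0.14) and none of the 6 myelin markers (median 0.18) was called by limma, edgeR or DESeq2, while 2 and 1 of them had an unadjusted limma p under 0.05, all higher. The lists include cldn5b and cldnk themselves, and cldn5b was 1 of the 2 endothelium markers at that p. Another 6 claudins named after their values were seen, cldn2, cldnf, cldn7b, cldnh, cldnc and cldn11a, had log2 fold changes of 0.43, 0.42, 0.30, 0.26, 0.26 and 0.22 at such a p. The log2 fold changes of the remaining 9 claudins, cldn15b among them, ranged from -0.11 to 0.39.

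Cldn23a kept its call in every omission of a library, cldn15a lost it without DMSO replicate 2, and cldn15lb without DMSO replicate 2 or Tan I replicate 2. Cldne and cldnd1a kept theirs only when Tan I replicate 3 was left out, and both lost it when reads were thinned, so the claudin count was 1 without DMSO replicate 2, 2 without Tan I replicate 2, 3 without DMSO replicate 1, DMSO replicate 3 or Tan I replicate 1 and after thinning, and 10 with quality weights.

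**Figure D3:**
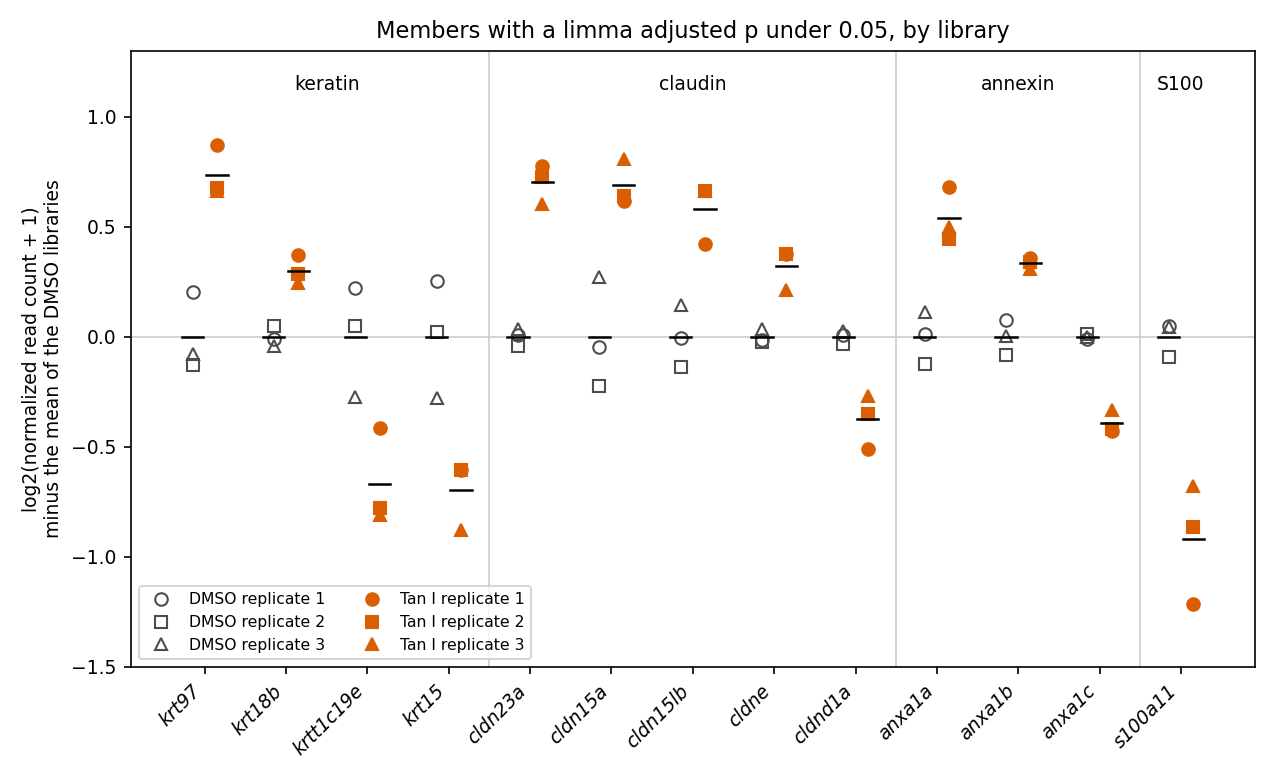
For the 13 called members (x axis, by family), log2(normalized read count + 1) of each library minus the mean of the DMSO libraries (y axis), with open grey symbols for DMSO, filled orange for Tan I, a symbol shape per replicate number and a black line at each group's mean. The groups are separate in each gene, from s100a11 at a mean of -0.92 to krt97 at 0.74, and krt15 and krtt1c19e have the same order of DMSO replicates.

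The annexin calls were all annexin A1 genes, and these changed in opposite directions. Of 16 annexins, 3 were called (18.8%), anxa1a and anxa1b higher and anxa1c lower. Over all tested genes 2.57% were called, 2.07% higher and 0.504% lower. At an unadjusted limma p under 0.05 there were 6 annexins, 5 of them higher, beside 8.77% of all tested genes higher and 6.5% lower. The family's median log2 fold change was 0.086. In mammals annexin A1 is known as an anti-inflammatory protein that glucocorticoids induce. Anxa1a had 1198, 1089 and 1282 counts in DMSO and 1904, 1618 and 1678 in Tan I (log2 fold change 0.54 ± 0.08, limma adjusted p = 0.00318). Anxa1b had 1088, 975 and 1035 counts in DMSO and 1324, 1305 and 1278 in Tan I (0.34 ± 0.07, limma adjusted p = 0.0226). In contrast, anxa1c went from 717, 727 and 721 counts in DMSO to 536, 539 and 573 in Tan I (-0.39 ± 0.07, limma adjusted p = 0.0133). The DMSO libraries of anxa1c had a coefficient of variation of 0.747%, and no value of either group came near the other. Anxa1d, a weaker copy named after its values were seen, had a log2 fold change of 0.13 ± 0.16.

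Anxa2a, which encodes the annexin that binds S100A10, had 1250, 1065 and 1128 counts in DMSO and 1546, 1671 and 1284 in Tan I. The groups did not overlap, but the gene stayed above the threshold (log2 fold change 0.38 ± 0.10, limma adjusted p = 0.0611). It passed under 5 of the 18 alternatives, DESeq2 on recovered reads among them. Among annexins with a log2 fold change below 0, anxa4 had the smallest p after anxa1c (-0.13 ± 0.08, limma adjusted p = 0.470). The phosphatidylserine-binding anxa5b was at -0.099 ± 0.08 and anxa6 at 0.039 ± 0.10, both with overlapping groups. The other 8 annexins had log2 fold changes from -0.048 to 0.33, and none was called.

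Annexins took 0.0910 ± 0.0017% of all counts in DMSO and 0.0984 ± 0.0022% after Tan I (SD, n = 3), without overlap (2-sided exact permutation p = 0.1, the smallest possible). Anxa1a kept its call whichever library was left out. Anxa1c lost its call without DMSO replicate 2 or Tan I replicate 2, and anxa1b without either of these, DMSO replicate 3 or Tan I replicate 1, so that 1 annexin was called without DMSO replicate 2 and 1 without Tan I replicate 2.

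S100a11 was the member that fell furthest. Its counts were 311, 282 and 310 in DMSO and 129, 165 and 188 in Tan I, a level 0.529-fold that of DMSO (log2 fold change -0.92 ± 0.14, limma adjusted p = 0.00251). Every Tan I library was far below every DMSO library, and the call held in each omission of a library. In mammals S100A11 binds annexin A1, and here anxa1a and anxa1b rose while s100a11 and anxa1c fell. S100a11 was the only one of 12 S100 genes called (8.33%), beside 2.57% of all tested genes, 2.07% higher and 0.504% lower. At an unadjusted limma p under 0.05 there were 6 S100 genes, 5 of them higher, beside 8.77% of all tested genes higher and 6.5% lower. The family's median log2 fold change was 0.18, with 9 of 12 genes above 0, beside 10110 of all 20836 tested genes. Over S100 genes with a mean of at least 100 the median was 0.11.

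S100a10b, whose mammalian counterpart binds annexin A2, had 1246, 1195 and 1287 counts in DMSO and 1399, 1494 and 1401 in Tan I. The groups were separate but the change was small (log2 fold change 0.20 ± 0.07, adjusted p = 0.163). S100z had 47.4, 41.3 and 58.9 counts in DMSO and 88.6, 59.9 and 66.2 in Tan I (0.53 ± 0.21, adjusted p = 0.256). S100v2 had a log2 fold change of -0.17 ± 0.09, and s100b, a glial S100 gene, of -0.21 ± 0.14, both with overlapping groups. At an unadjusted limma p under 0.05, s100t, s100u and s100w, named after their values were seen, were higher as well, with log2 fold changes of 0.22, 0.17 and 0.42. The other 4 ranged from 0.015 to 0.56 and had overlapping groups. S100 genes took 0.0303 ± 0.0009% of all counts in DMSO and 0.0325 ± 0.0007% after Tan I (SD, n = 3), without overlap (2-sided exact permutation p = 0.1, the smallest possible).

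Many members stand next to a relative in the genome. In the gene order of the RefSeq annotation of another assembly (GRCz12tu), in which 73 of 74 members were found, 33 members lay in 10 runs of members or of related genes, with at most 3 other coding genes between neighbours. Called genes stood beside uncalled genes, some of them moving the same way, or beside an oppositely moving called gene. Anxa1c and anxa1b are neighbours, and the first fell while the second rose. S100a11 fell, while s100u (log2 fold change 0.17 ± 0.08) and s100s (0.042 ± 0.11) beside it were not called. In the run krt94, krt98, krt15 and krt99 only krt15 was called, with krt99 at 0.80 ± 0.25. Krtt1c19e fell together with cyt1l, a type I cytokeratin gene of the same run, whereas krt92 between them was at -0.016 ± 0.08. In that run cyt1 (-0.34) and krt17 (-0.51) were lower too but not called, while krt91 was at 0.092 and krt1-19d at 0.061. Krt222 (0.42), beside the called krt97 (0.74), and cldnf (0.42), beside the called cldne (0.32), were higher and not called. Cldnj on the other side of cldne was at -0.11. In the run cldnh, cldnc and cldnb all 3 log2 fold changes were positive (0.26, 0.26 and 0.34) and none was called. Neighbours in this paragraph outside the naming rule were chosen after their values were seen.

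**Figure D4:**
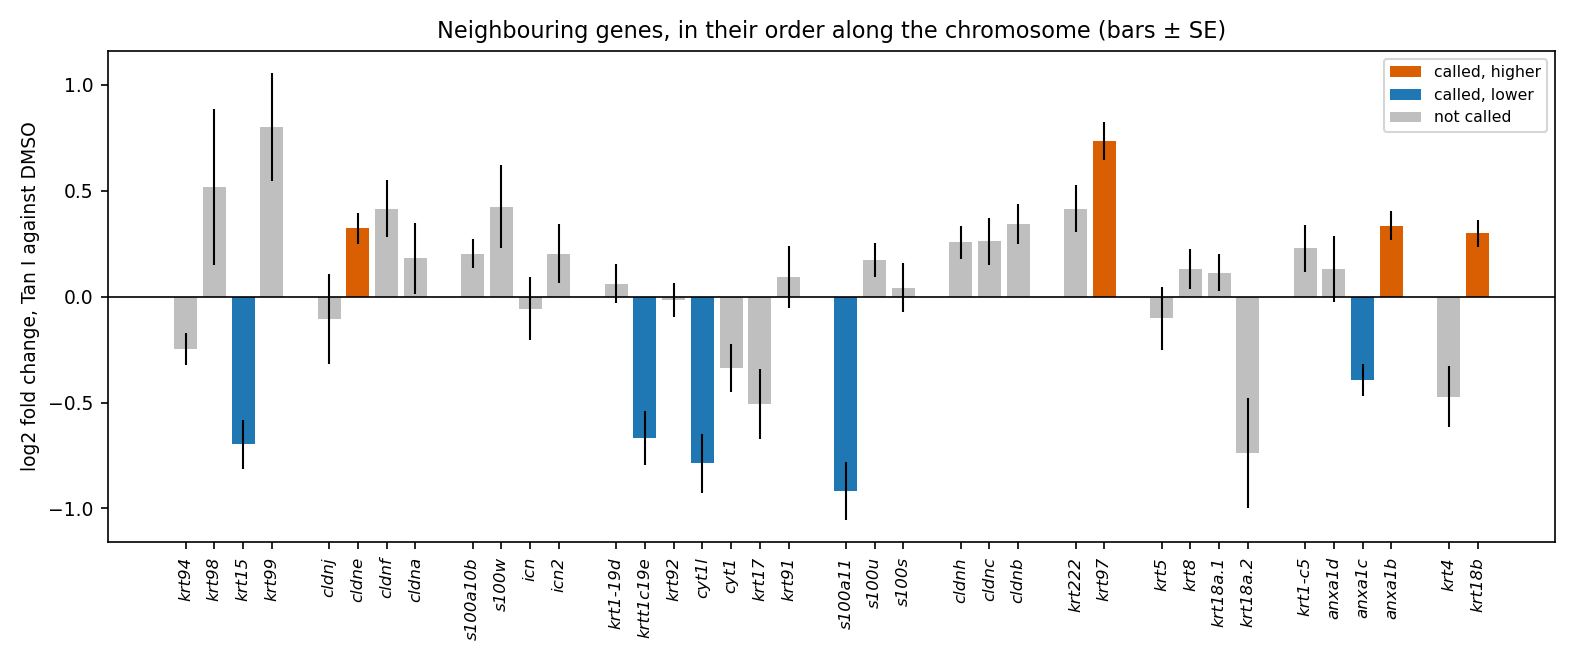
Log2 fold change of Tan I against DMSO (y axis, bars with the limma standard error) for genes in the 10 runs of neighbours, in their order along the chromosome with a gap between runs. Orange bars were called and higher, blue called and lower and grey not called. Anxa1c (-0.39) and anxa1b (0.34) adjoin, and krtt1c19e (-0.67) and cyt1l (-0.79) share a run with uncalled keratins.

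Of the lists of other junction and filament genes, 5 had no called gene. At the 2.57% called over all tested genes, lists of this size would hold few or no calls, so these counts say little about the lists. Of 30 tight junction partners of claudins, such as scaffold and occludin family genes, none was called by limma, 6 had an unadjusted p under 0.05, all higher (20% of the list, beside 8.77% of all tested genes), and the median was 0.081. Of 16 desmosome and plakin genes, which anchor keratins at cell contacts, none was called and 2 were higher at an unadjusted p under 0.05 (median 0.085). Of 7 hemidesmosome genes, which anchor keratins to the basement membrane, none was called and 2 were higher at such a p (median 0.038). Of 11 other tetraspan genes related to claudins none was called and none had an unadjusted p under 0.05 (median -0.029). A list drawn up as partners of S100 proteins and annexins had 13 rows (12 symbols), calmodulin genes among them. None was called, and 2 were lower at an unadjusted limma p under 0.05, trpv6 and a calm3a row (median -0.044). In these 5 lists edgeR and DESeq2 on the recovered reads also made 0 calls.

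Single genes of other lists passed. Epcam, an epithelial adhesion molecule, was the only one of 8 adherens genes called, with 3034, 2754 and 2778 counts in DMSO and 4260, 3756 and 3260 in Tan I (log2 fold change 0.39 ± 0.09, limma adjusted p = 0.0377). Grhl3, a transcription factor of epidermal differentiation, was the only one of 13 epidermal transcription factors, with 97.1, 86.2 and 90.1 counts in DMSO and 132, 150 and 142 in Tan I (0.63 ± 0.14, limma adjusted p = 0.0296). Both were separate between groups. Gfap, the glial intermediate filament, was the only one of 18 other intermediate filament genes (0.26 ± 0.06, limma adjusted p = 0.0420). Of 4 keratin and S100 genes that carry other symbols, cyt1l fell from 16205, 14735 and 12716 counts to 11074, 7202 and 7397 (-0.79 ± 0.14, limma adjusted p = 0.00799), whereas cyt1, icn and icn2 were not called. These calls depended on single libraries. Epcam kept its call only without DMSO replicate 1 or Tan I replicate 3, grhl3 only without DMSO replicate 1 and gfap only without Tan I replicate 1, with limma adjusted p of up to 0.207, 0.148 and 0.218 in the other omissions. Cyt1l lost its call without DMSO replicate 2 or Tan I replicate 2 (up to 0.0663).

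Marker lists of the skin gave no common direction. For comparison, 2.57% of all tested genes were called, and 8.77% were higher and 6.5% lower at an unadjusted limma p under 0.05. Of 10 periderm markers, 3 of them members (krt4, krt17 and cldne), 2 rose (grhl3 and cldne) and 1 fell (cyt1l). At an unadjusted limma p under 0.05, 2 were higher and 4 lower (krt4, krt17, cyt1 and cyt1l). The list's median was 0.014, and its summed counts, to which krt4 contributed most, were 114268 to 150373 in DMSO and 87556 to 118395 in Tan I, which overlap. Of 6 basal epidermis markers only krtt1c19e, a member itself, was called and 1 other, itga6b, was higher at such a p, with a median of 0.011. The sums, to which krtt1c19e contributed most, were 46210 to 65195 in DMSO and 34650 to 46293 in Tan I, which overlap. Of 8 ionocyte markers none was called by limma, edgeR or DESeq2, and 2 were lower at an unadjusted limma p under 0.05 (median -0.14). The log2 fold change was below 0 for 7 of the 8, beside 10726 of all 20836 tested genes. Of 3 mucous cell markers muc5.2, a gel-forming mucin, rose from 59.0, 60.7 and 47.8 counts to 148, 154 and 104 (1.25 ± 0.19, limma adjusted p = 0.00258). It was the only one called, and all 3 were higher at an unadjusted limma p under 0.05 (median 0.56). None of 6 neutrophil rows (median 0.42, 3 higher at an unadjusted p under 0.05) and none of 4 macrophage genes (median -0.38, 1 higher and 1 lower at such a p) was called by limma. Here edgeR called 1 neutrophil row and DESeq2 1 row of each list. Summed neutrophil counts were 2354 to 2553 in DMSO and 2973, 5150 and 2711 in Tan I, so that Tan I replicate 2 again stood apart. The neutrophil list shares mmp13a with the wound and inflammation list. The part of these cell types in the results on the 4 families was not tested.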

How the data were processed

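Total RNA of the embryos was sequenced as paired-end reads. According to the study's methods the authors aligned them to GRCz11 with STAR, removed reads mapping to several places, counted genes with featureCounts and tested with DESeq2, whose versions, like the strand setting, are not given in the sources used here. The deposited signal values are read counts that the authors divided by a size factor per library. The authors' own fold changes, test scores and p-values were not used. Dividing by the step of each library gave whole reads for 100% of values (tolerance 0.01). Groups and replicate numbers came from the sample titles.

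Values were tested as log2(value + 1) with limma 3.58.1 (mean-variance trend, R 4.3.3, 2-sided) over the 20836 genes with a mean of at least 10, leaving out 481. This scale understates changes of weak genes. Because the values are normalized, edgeR 4.0.16 and DESeq2 1.42.0 served as alternatives on recovered reads. The procedure was tested on simulated data in which genes varied independently. Such data lack the shared movement between libraries seen among the abundant keratins. Genes named were called members, the 2 smallest p per direction in each family, a set of well-known members, and up to 2 called genes per direction of each partner list. Members, lists and rules were chosen with earlier results of these data known. Other alternatives were pseudocounts of 0.1 and 10, no minimum or one of 100, upper-quartile and quantile scaling, no trend, quality weights, the replicate number as a block, omission of each library and, added after the depths were seen, thinning. Of the 74 gene IDs, all were in a separate name table and 58 had the same symbol there.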

Additional observations from a re-analysis of the deposited data

How the results depend on the processing

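The count of called members was 13 with pseudocounts of 0.1 and 10, without a minimum, with a minimum of 100, with upper-quartile scaling and with edgeR, and 15 with quantile normalization (anxa2a and krt4 added) and DESeq2. Without the mean-variance trend 165 genes were called in all, with 1 member, 0 keratins, 1 claudin, 0 annexins and 0 S100 genes; krt97 was then at a limma adjusted p of 0.0591. Sample quality weights gave 984 genes, 23 members, 7 keratins, 10 claudins and 2 S100 genes. The replicate number as a block gave 1093 genes, 21 members, 8 keratins and 8 claudins, with all 13 members kept. Whether the numbers pair the libraries is not stated, and the main fit did not pair them. Same-numbered libraries deviated together with correlations of 0.081, -0.029 and 0.21 over all tested genes. A value pooled over all genes cannot show whether some genes share a replicate effect. Over keratins alone these correlations were -0.14, -0.46 and 0.79, and DMSO replicate 2 with Tan I replicate 1 had 0.87. Thinning gave 492 genes, 11 members and 3 claudins. With a minimum of 100 the S100 median was 0.11. The cause of these differences was not tested.

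Leaving out 1 library at a time gave 213 to 709 genes, 5 to 16 members, 2 to 5 keratins, 1 to 7 claudins, 1 to 4 annexins and 1 S100 gene, with medians of -0.025 to 0.16 for keratins, 0.18 to 0.24 for claudins, 0.076 to 0.13 for annexins and 0.13 to 0.22 for S100 genes.

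Reversals touched only genes that were not called. The log2 fold change of cldn5a was -0.0032 with upper-quartile scaling, -0.0014 with quality weights, -0.0019 after thinning and -0.055 to 0.083 in omissions of a library (-0.025 without DMSO replicate 2, -0.055 without DMSO replicate 3, -0.053 without Tan I replicate 3). That of anxa6 was -0.020 with quality weights and -0.074 to 0.12 in omissions (-0.074 without DMSO replicate 3, -0.032 without Tan I replicate 1). In omissions krt5 ranged from -0.26 to 0.059 (0.059 without DMSO replicate 1), krt91 from -0.068 to 0.24 (-0.042 without DMSO replicate 3, -0.068 without Tan I replicate 1) and cldnk from -0.024 to 0.19 (-0.024 without DMSO replicate 3). With 3 libraries per group no single-value permutation test can pass 0.05, and weak members such as s100a1 rest on few reads.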
